A study of Mus musculus with 6 samples.

Results

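The lysosome is the acidic compartment in which cells break down proteins, sugars, lipids and nucleic acids. Its acidity comes from the V-ATPase, a rotary proton pump whose V1 sector splits ATP in the cytosol and whose V0 sector carries protons through the membrane. Its digestive enzymes are soluble hydrolases, most of them sorted from the Golgi by a mannose 6-phosphate tag. In granulocytes the same enzymes and membrane proteins are also found in granules, among them CD63 in the azurophil granule membrane. A total of 44 genes of this system was listed by symbol, 16 of the V-ATPase and 28 others (hydrolases, their activators and lysosomal membrane proteins). Of these, 43 had a probe set annotated to that gene alone and were measured, among 19937 genes in all. The missing member is Atp6v0c, the proteolipid of the V0 ring. A gene with several probe sets was read from the one with the highest mean over all 6 arrays, and no gene was left out for a low value.

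The cells were granulocytes of strain C57BL/6J mice, profiled as total RNA on Affymetrix Mouse Gene 1.0 ST arrays, which use many short probes along each transcript. Per the labels' protocols all cultures were first kept in 15 mM caffeine for 4 hours, washed 2 times in buffer and then spent 4 hours in actinomycin D at 2 µg/ml, a blocker of transcription. The 3 caffeine-plus arrays come from cells that had caffeine again beside actinomycin D, and the 3 caffeine-minus arrays from cells that had actinomycin D alone, although their labels call them not treated. The series uses caffeine to inhibit nonsense-mediated decay, the pathway that removes mRNAs with premature stop codons, and asks which transcripts accumulate. Every group had actinomycin D, so each value describes RNA that remained after the block, and the arrays give the amount of an RNA relative to all others. Whether the replicates are separate animals or cultures is not in the labels, and the p-values then cover only the spread among these arrays, which may be technical. Array medians lay between 6.49 and 6.60 on the log2 scale, and arrays of one group correlated across probe sets at r = 0.986 to 0.992 against 0.959 to 0.965 between groups.

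Lysosomal genes outside the pump were mostly lower with caffeine, and the V-ATPase genes were split. Of the 28 other lysosomal genes 22 fell and 3 rose (limma, Benjamini-Hochberg adjusted p under 0.05 over all genes), which is 78.6% and 10.7%, where 21.7% of all genes tested fell and 16.2% rose (37.9% in either direction). Their median log2 difference, the caffeine-plus mean less the caffeine-minus mean, was -0.71 against -0.04 over all genes. Of the 15 measured V-ATPase genes 6 fell (40.0%) and 2 rose (13.3%), with a median of -0.12. All 43 members lay above the median level of all genes, and among the 9968 genes of that kind 33.0% fell and 29.5% rose. The V-ATPase median was below 0 under every setting tried but was small: it was -0.06 with arrays centred on their medians, -0.18 after quantile normalization, -0.07 without caffeine-plus array 1 and -0.04 without caffeine-minus array 1. The difference between the pump genes and the other lysosomal genes was not tested, since genes are not replicates.

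The shift was alike in the 3 caffeine-plus arrays. Measured from each gene's caffeine-minus mean, the median of the 28 other lysosomal genes was -0.69, -0.71 and -0.72 on the log2 scale in caffeine-plus arrays 1, 2 and 3. In the caffeine-minus arrays it was 0.04, 0.01 and -0.04. For the 15 V-ATPase genes it was -0.11, -0.03 and -0.12 in the caffeine-plus arrays and 0.08, 0.02 and -0.05 in the others, so the pump's median moved little more than its arrays differed. Without any overlap between groups, 28 members were lower and 6 higher, where 26.3% and 19.5% of all genes were.

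**Figure D1:**
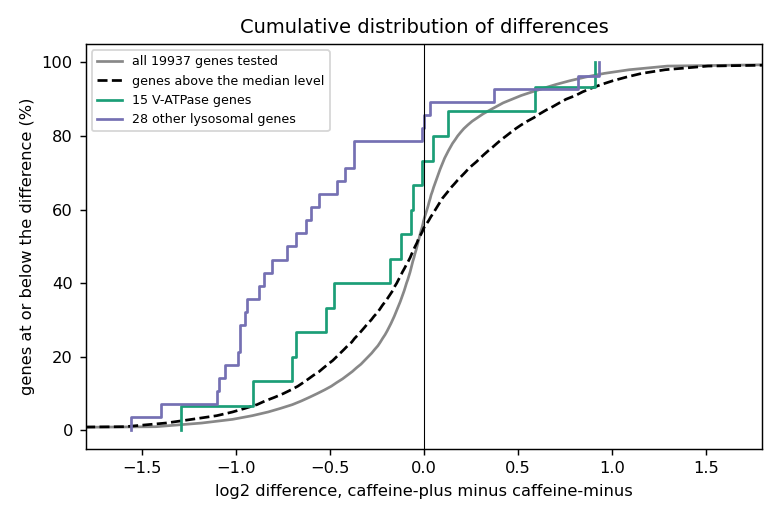
Cumulative share of genes (vertical axis, %) at or below a given log2 difference between caffeine-plus and caffeine-minus arrays (horizontal axis), for all 19937 genes, for genes above the median level, for the 15 V-ATPase genes and for the 28 other lysosomal genes. The curve of the other lysosomal genes lies far to the left, with a median of -0.71, while the V-ATPase curve, with a median of -0.12, lies mostly between it and the curves of all genes at the differences of the 6 genes that fell, and closer to those curves near 0.

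Many lysosomal genes share a promoter element, CLEAR, with the palindrome GTCACGTGAC, which is bound by TFEB and its relatives and holds the shorter E-box CACGTG. The 34 members with an entry in the RefSeq promoter table of build GRCm38.p6 were searched for 3 motifs, each its own reverse complement and each contained in the next: CACGTG, TCACGTGA and GTCACGTGAC. The window ran from 250 bases before to 50 bases after each listed start. CACGTG was found in 13 of the 34 members (38.2%) and in 8.09% of all 27025 genes of the table (7.15% of its 32851 promoters). TCACGTGA was found in 8 members (23.5%) and 1.12% of genes (0.974% of promoters). The full palindrome was found in Cln3 alone among members, and in 0.37% of genes (0.326% of promoters). These are matches of letters, not measured sites. The 250 bases before the start are shown for the members with TCACGTGA wholly in front of it, because members of both directions hold it, and for Lamp1, which has the most copies of CACGTG. They read 5′ to 3′ on the gene's strand, and capitals mark TCACGTGA or, where its outer bases differ, CACGTG.
Atp6v1a (chr16:44139260-44139509, - strand): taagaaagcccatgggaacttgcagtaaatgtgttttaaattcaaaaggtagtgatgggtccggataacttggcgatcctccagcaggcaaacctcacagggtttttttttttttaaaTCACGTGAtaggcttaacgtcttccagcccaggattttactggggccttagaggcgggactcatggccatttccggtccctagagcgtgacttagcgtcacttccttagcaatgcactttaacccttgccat
Cln3 (chr7:126583237-126583486, - strand): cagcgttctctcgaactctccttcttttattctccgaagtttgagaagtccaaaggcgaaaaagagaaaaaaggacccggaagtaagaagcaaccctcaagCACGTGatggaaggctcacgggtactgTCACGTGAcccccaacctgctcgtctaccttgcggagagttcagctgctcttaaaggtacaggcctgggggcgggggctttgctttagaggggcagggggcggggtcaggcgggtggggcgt
Ctsa (chr2:164833523-164833772, + strand): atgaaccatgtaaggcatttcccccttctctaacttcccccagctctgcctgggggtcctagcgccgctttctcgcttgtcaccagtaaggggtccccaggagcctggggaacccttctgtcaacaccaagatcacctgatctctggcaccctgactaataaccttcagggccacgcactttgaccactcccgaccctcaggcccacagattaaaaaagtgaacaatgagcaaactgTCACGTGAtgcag
Ctsd (chr7:142387828-142388077, - strand): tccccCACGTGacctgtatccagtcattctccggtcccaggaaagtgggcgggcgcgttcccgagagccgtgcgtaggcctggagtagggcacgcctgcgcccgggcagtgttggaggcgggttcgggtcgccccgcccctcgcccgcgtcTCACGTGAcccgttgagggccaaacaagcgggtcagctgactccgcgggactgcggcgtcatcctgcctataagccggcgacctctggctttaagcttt
Gla (chrX:134601006-134601255, - strand): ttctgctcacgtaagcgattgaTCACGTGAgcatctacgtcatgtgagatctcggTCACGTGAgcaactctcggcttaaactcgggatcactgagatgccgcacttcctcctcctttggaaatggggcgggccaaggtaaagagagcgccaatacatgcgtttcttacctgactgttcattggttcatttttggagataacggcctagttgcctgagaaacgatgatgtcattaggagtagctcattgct
Lamp1 (chr8:13158911-13159160, + strand): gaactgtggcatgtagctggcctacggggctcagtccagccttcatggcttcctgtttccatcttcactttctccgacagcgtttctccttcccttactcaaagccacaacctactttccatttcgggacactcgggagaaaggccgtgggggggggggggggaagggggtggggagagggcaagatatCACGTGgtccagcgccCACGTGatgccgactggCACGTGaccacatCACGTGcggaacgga
Mcoln1 (chr8:3500269-3500518, + strand): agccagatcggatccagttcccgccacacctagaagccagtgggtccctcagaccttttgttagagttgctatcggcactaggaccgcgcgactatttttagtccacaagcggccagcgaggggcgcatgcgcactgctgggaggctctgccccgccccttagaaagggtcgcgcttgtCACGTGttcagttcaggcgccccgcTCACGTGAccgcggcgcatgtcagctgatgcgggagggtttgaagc

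Members fell and rose both with and without the motif. Of the 13 with CACGTG 8 fell, 2 rose and 3 did not pass, and their median log2 difference was -0.56 (range -1.40 to 0.93). Of the 20 measured members whose windows lack it 15 fell, 1 rose and 4 did not pass, with a median of -0.64 (range -1.56 to 0.82). Atp6v1b2 and Atp6v1h, which rose, had no promoter entry and are in none of these groups. Of the 8 members with TCACGTGA 5 fell and 2 rose, with a median of -0.66. Of the 25 without it 18 fell and 1 rose, with a median of -0.56. The motif is 46 bases before the start of Mcoln1 and 99 before that of Ctsd, which fell, and 195 and 228 before that of Gla and 122 before that of Cln3, which rose.

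**Figure D2:**
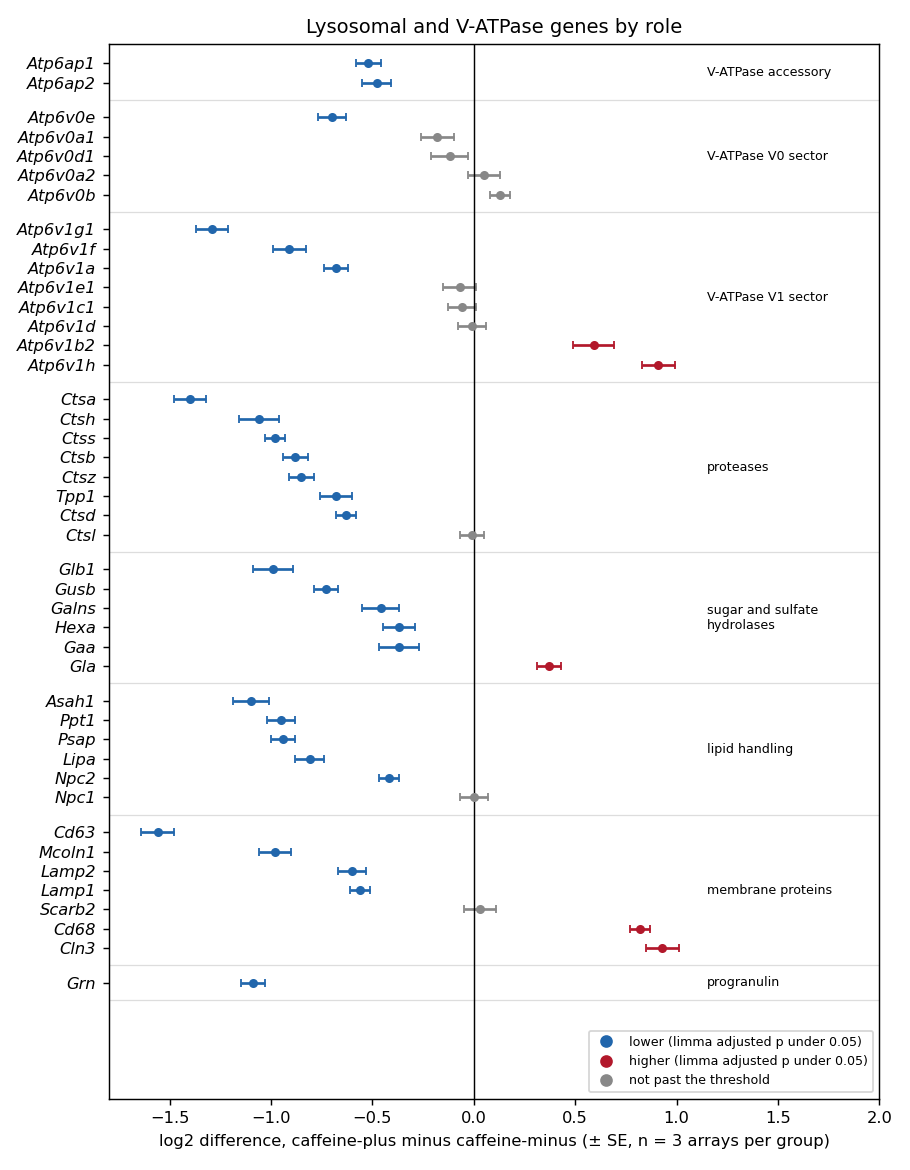
Log2 difference (caffeine-plus minus caffeine-minus, with SE, n = 3 arrays per group) of each of the 43 measured genes, grouped by role. Blue genes were lower, red genes higher and grey genes not past the limma threshold; 7 of 8 proteases lie to the left of 0 in blue, while the V1 sector holds genes on both sides.

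The V1 sector, which splits ATP, held the pump's widest spread, with 3 of 8 genes lower and 2 higher. Atp6v1g1, a subunit of the outer stalk that keeps the stator still, had log2 values of 8.26, 8.39 and 8.39 in the caffeine-plus arrays and 9.54, 9.69 and 9.68 in the caffeine-minus arrays. It was 2.45-fold lower (log2 difference -1.29 ± 0.08 SE, limma adjusted p = 2e-09), and the groups were more than 1 log2 unit apart. A dimmer probe set of the gene also fell (-0.78 ± 0.17, limma adjusted p = 0.0019), with 6.88, 6.97 and 7.48 against 8.21, 7.53 and 7.93, where caffeine-plus array 3 came close to caffeine-minus array 2. Atp6v1f, a subunit of the central rotor, read 8.67, 8.91 and 8.84 against 9.80, 9.60 and 9.76 and was 1.88-fold lower (-0.91 ± 0.08, limma adjusted p = 1.6e-07). Its other, dimmer probe set did not pass (-0.15 ± 0.12, limma adjusted p = 0.38), with overlapping values of 6.80, 7.22 and 7.15 against 7.20, 7.33 and 7.09, so the 2 probe sets disagree in size. Atp6v1a, the catalytic subunit that binds ATP, read 9.27, 9.38 and 9.29 against 10.00, 10.02 and 9.97. It was 1.60-fold lower (-0.68 ± 0.06, limma adjusted p = 2.7e-07), with tight groups.

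In the opposite direction moved Atp6v1h, the regulatory subunit that couples ATP splitting to the proton channel. Its log2 values were 8.86, 8.92 and 8.91 with caffeine and 7.95, 8.07 and 7.95 without, 1.88-fold higher (0.91 ± 0.08, limma adjusted p = 9.4e-08). Atp6v1b2, the ATP-binding partner of the catalytic subunit, read 10.27, 10.22 and 10.11 against 9.39, 9.90 and 9.55 and was 1.50-fold higher (0.59 ± 0.10, limma adjusted p = 0.00016). The groups did not overlap, but caffeine-minus array 2 stood above the other two. The catalytic subunit gene and its partner thus differed in opposite directions. The remaining V1 genes, for the outer stalk subunit Atp6v1e1, the stalk connector Atp6v1c1 and the rotor subunit Atp6v1d, differed by -0.07 ± 0.08, -0.06 ± 0.07 and -0.01 ± 0.07, none past the threshold. For Atp6v1c1 the test passed after quantile normalization alone (-0.15, limma adjusted p = 0.031), with a range of adjusted p of 0.031 to 0.98 over 16 alternatives.

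Among the 5 measured genes of the V0 sector, the proton path, Atp6v0e alone passed the test as fitted above. The gene, which encodes a small membrane subunit, had log2 values of 9.59, 9.74 and 9.65 in the caffeine-plus arrays and 10.44, 10.24 and 10.42 in the caffeine-minus arrays, 1.63-fold lower (-0.70 ± 0.07, limma adjusted p = 6.1e-07). Atp6v0b, a proteolipid of the rotating ring, was at 11.57, 11.65 and 11.65 against 11.57, 11.48 and 11.42 (0.13 ± 0.05, limma adjusted p = 0.053). Its groups did not overlap, by less than the rounding shown. It passed under 5 of 16 alternatives, among them both scalings (0.21 after quantile normalization, 0.19 with arrays centred), with adjusted p from 0.00039 to 0.26. The large anchoring subunit gene Atp6v0a1 differed by -0.18 ± 0.08 (limma adjusted p = 0.11, range 0.0031 to 0.38) and passed after quantile normalization and without caffeine-minus array 3. Atp6v0d1, which joins ring and rotor, differed by -0.12 ± 0.09. The 2 probe sets of Atp6v0a2, a paralog of Atp6v0a1, gave 0.05 ± 0.08 and -0.10 ± 0.08, and neither passed.

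Both accessory genes fell. Atp6ap1, whose protein helps to assemble the pump, read 10.58, 10.52 and 10.50 with caffeine and 11.07, 11.15 and 10.93 without, 1.43-fold lower (-0.52 ± 0.06, limma adjusted p = 3.8e-06). Atp6ap2, the prorenin receptor, was 1.40-fold lower (-0.48 ± 0.07, limma adjusted p = 4e-05), and its groups did not overlap either.

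**Figure D3:**
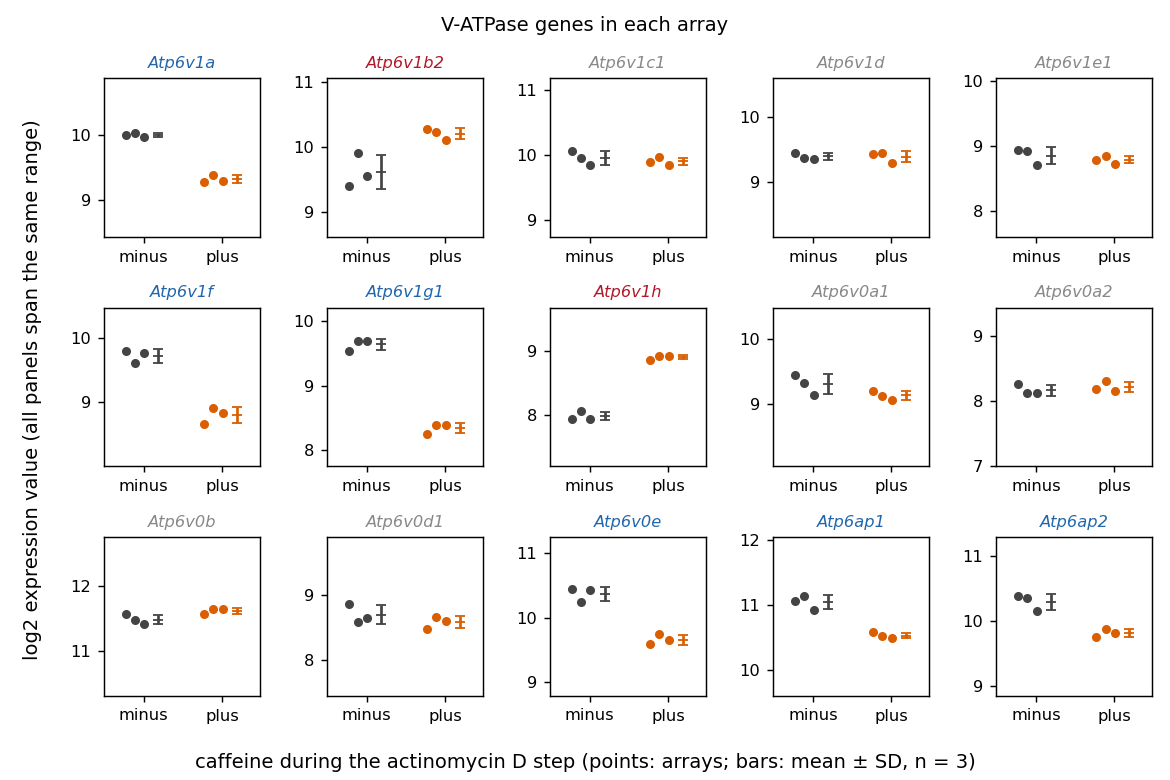
Log2 expression value of the 15 measured V-ATPase genes in each array, without (grey) and with (orange) caffeine during the actinomycin D step; points are arrays, and bars beside them give mean and SD (n = 3). Each panel spans the same number of log2 units; Atp6v1g1 drops by 1.29 and Atp6v1h is 0.91 higher, while Atp6v1d is level at -0.01.

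Further genes of the pump, from lists chosen with earlier results of these data known, gave mixed values. Of 10 other subunit genes, most of them paralogs known from kidney, testis or bone, 1 rose and 1 fell. Atp6v0a4, Atp6v0d2, Atp6v1b1, Atp6v1c2, Atp6v1e2 and Atp6v1g3, which did not pass, were dim. Their group means lay between 4.75 and 6.14, below every array median, so a change in them could be understated. Rnasek, a small membrane protein associated with V0, was 3.46-fold lower (-1.79 ± 0.06, limma adjusted p = 1.5e-11), a larger fall than that of any of the 43 members. Tcirg1, the a3 subunit of osteoclasts and leukocytes, was 1.30-fold higher (0.38 ± 0.08, limma adjusted p = 0.0011). The a-subunit genes Atp6v0a1, Atp6v0a2, Tcirg1 and the dim Atp6v0a4 thus differed by -0.18, 0.05, 0.38 and -0.05, and only Tcirg1 passed as fitted above. Of 9 genes of assembly factors and V1-binding proteins 2 fell and 2 rose, near the shares of all genes. Tmem199 and Ccdc115, which act together in building V0, were 1.90-fold and 1.65-fold lower (-0.92 ± 0.08 and -0.72 ± 0.14). Dmxl1, a rabconnectin that promotes joining of V1 to V0, was 2.30-fold higher (1.20 ± 0.08), and Oxr1, a V1-binding protein, 1.26-fold higher (0.33 ± 0.11). The count of rises was 1 without caffeine-plus array 1 or 2 or without caffeine-minus array 3.

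The lysosomal proteases moved together, with 7 of 8 lower and a median of -0.86. Ctsa, a carboxypeptidase that also shields β-galactosidase and neuraminidase, had log2 values of 8.26, 8.15 and 8.13 in the caffeine-plus arrays and 9.67, 9.49 and 9.57 in the caffeine-minus arrays. It was 2.63-fold lower (-1.40 ± 0.08, limma adjusted p = 1.1e-09). Ctsh, an aminopeptidase, lay between 7.88 and 8.06 in the caffeine-plus arrays (mean 7.98 ± 0.09 SD, n = 3) and read 9.21, 9.13 and 8.78 in the others. It was 2.09-fold lower (-1.06 ± 0.10, limma adjusted p = 4.6e-07), with caffeine-minus array 3 the lowest of its group. The cysteine proteases Ctss, Ctsb and Ctsz differed by -0.98 ± 0.05, -0.88 ± 0.06 and -0.85 ± 0.06. Tpp1, a tripeptidyl peptidase, and Ctsd, the main aspartic protease, differed by -0.68 ± 0.08 and -0.63 ± 0.05, and all 5 of these fell without overlap. Ctsl, a further cysteine protease, stood at 10.22 ± 0.09 (SD, n = 3) against 10.23 ± 0.07 (SD, n = 3), a difference of -0.01 ± 0.06 (limma adjusted p = 0.96).

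Of 12 further lysosomal protease genes 9 fell and 1 rose (75.0% and 8.33%, median -0.54). Ctsc, which activates the serine proteases of granules, was 1.85-fold lower (-0.89 ± 0.06). Ctso and Ctse were 2.10-fold and 2.08-fold lower. Ctsk, best known as the collagen-cutting enzyme of osteoclasts, was 1.58-fold higher (0.66 ± 0.08, limma adjusted p = 9.3e-06).

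Among the 6 enzymes that cut sugars or sulfate groups 5 fell and 1 rose. Glb1, β-galactosidase, was 1.98-fold lower (-0.99 ± 0.10, limma adjusted p = 9.3e-07), and Gusb, β-glucuronidase, 1.66-fold lower (-0.73 ± 0.06). The sulfatase gene Galns, the hexosaminidase gene Hexa and Gaa, the enzyme of lysosomal glycogen breakdown, fell by less, with -0.46 ± 0.09, -0.37 ± 0.08 and -0.37 ± 0.10. For Gaa the call was lost without caffeine-plus array 1 (limma adjusted p = 0.052, range 0.0021 to 0.052 over 16 alternatives, against 0.0058). Gla, α-galactosidase A, read 9.78, 9.81 and 9.76 with caffeine and 9.39, 9.45 and 9.38 without. It was 1.29-fold higher (0.37 ± 0.06, limma adjusted p = 0.00013), and its arrays were even in both groups, with SDs of 0.02 and 0.04.

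Genes of lipid handling fell in 5 of 6 cases, with a median of -0.88. Asah1, acid ceramidase, had log2 values of 8.07, 7.97 and 7.89 in the caffeine-plus arrays and 9.26, 9.07 and 8.90 in the caffeine-minus arrays, 2.14-fold lower (-1.10 ± 0.09, limma adjusted p = 1.1e-07). Ppt1, which removes fatty acids from proteins, and Psap, the precursor of the saposins that present lipids to hydrolases, were 1.93-fold and 1.92-fold lower (-0.95 ± 0.07 and -0.94 ± 0.06). Lipa, acid lipase, was 1.75-fold lower (-0.81 ± 0.07). The partners of cholesterol export gave different values: the soluble carrier gene Npc2 was 1.34-fold lower (-0.42 ± 0.05, limma adjusted p = 6.3e-06), while the membrane protein gene Npc1 stood at a mean of 9.12 in both groups (limma adjusted p = 0.98).

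A further 25 hydrolase and activator genes could be measured of 31 listed. Of these 17 fell (68.0%, median -0.41), and by limma none rose, also at an unadjusted p under 0.05 (0 genes). Those with the smallest p were the chitobiase gene Ctbs (2.23-fold lower, -1.16 ± 0.09), the fucosidase gene Fuca1 (2.40-fold lower, -1.26 ± 0.11) and Hgsnat of heparan sulfate breakdown (1.98-fold lower, -0.99 ± 0.09).

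Lysosomal membrane proteins held both the largest fall and the largest rise of all members. Cd63, a tetraspanin of lysosomes and azurophil granules, read 9.05, 9.01 and 9.16 with caffeine and 10.80, 10.57 and 10.55 without. It was 2.95-fold lower (-1.56 ± 0.08, limma adjusted p = 3.4e-10), and 134 of the 19937 genes had a lower difference. Cln3, the gene of juvenile Batten disease, read 9.22, 9.16 and 9.19 against 8.36, 8.17 and 8.24 and was 1.91-fold higher (0.93 ± 0.08, limma adjusted p = 6.5e-08). Cd68, a heavily glycosylated protein related to the LAMP proteins, was at 11.38, 11.48 and 11.39 against 10.54, 10.64 and 10.62, and every caffeine-plus array lay above every caffeine-minus array (0.82 ± 0.05, limma adjusted p = 6.3e-09). Its relatives Lamp1 and Lamp2, the main coat proteins of the lysosomal membrane, fell, with -0.56 ± 0.05 and -0.60 ± 0.07. Mcoln1, the calcium channel of lysosomes, was 1.97-fold lower (-0.98 ± 0.08, limma adjusted p = 5.1e-08). Scarb2, the receptor that carries glucocerebrosidase to the lysosome, differed by 0.03 ± 0.08 (limma adjusted p = 0.81).

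**Figure D4:**
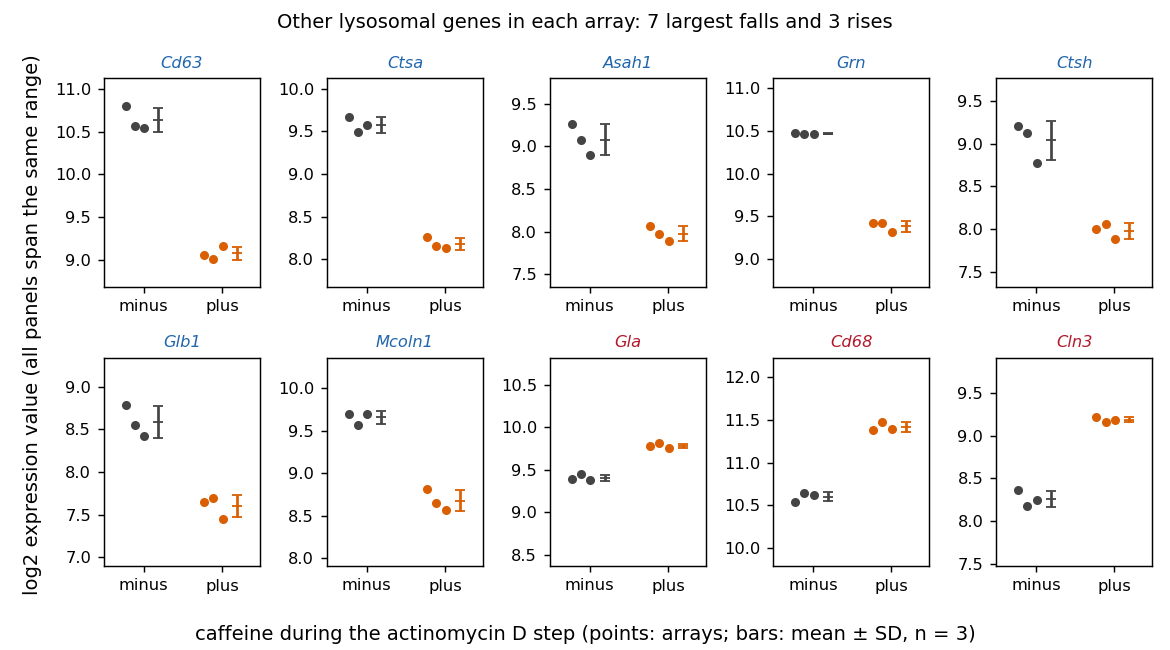
Log2 expression value in each array of the 7 lysosomal genes outside the V-ATPase with the largest falls and of the 3 that rose, without (grey) and with (orange) caffeine during the actinomycin D step; points are arrays, and bars give mean and SD (n = 3). In every panel the groups are separate, from a drop of 1.56 for Cd63 to a rise of 0.93 for Cln3.

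Grn, the gene of progranulin, a secreted and lysosomal protein made by myeloid cells, read 9.42, 9.42 and 9.31 with caffeine against 10.48, 10.47 and 10.46 without. It was 2.12-fold lower (-1.09 ± 0.06, limma adjusted p = 1.5e-09). With Cd63, Ctsa, Atp6v1g1, Asah1 and Ctsh it is 1 of the 6 members at least 2-fold lower, where 3.15% of all genes were.

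Of 31 further membrane protein genes measured, 16 fell and 4 rose, but 10 fell after each array was centred on its median. The potassium and proton channel gene Tmem175 was 2.38-fold lower (-1.25 ± 0.09), the tetraspanin gene Cd81 1.74-fold and the arginine-sensing transporter gene Slc38a9 1.72-fold lower. On the other side Slc15a4, a histidine and peptide transporter needed for Toll-like receptor signalling, was 1.70-fold higher (0.76 ± 0.08), Mfsd8 1.46-fold and Laptm4a 1.19-fold higher.

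The genes that deliver and control lysosomal proteins lay in both directions, as genes at large did. Of 18 measured genes of mannose 6-phosphate tagging and sorting 7 fell and 5 rose (38.9% and 27.8%), with a median of 0.01. These shares lay near the 33.0% and 29.5% of genes above the median level, and above the 21.7% and 16.2% of all genes. Ap1g1, a large subunit of the AP-1 coat, was 2.09-fold higher (1.06 ± 0.09), while Ap1m1, another subunit of that coat, was 1.67-fold lower (-0.74 ± 0.09). The retromer genes Vps35 and Vps29 likewise gave 0.62 ± 0.07 and -0.62 ± 0.06, and the AP-3 genes Ap3d1 and Ap3m1 0.73 ± 0.09 and -0.53 ± 0.07. All 6 passed the limma threshold and were named for the smallest p in each direction, so that both directions occur follows from the choice. Of their fellow subunits Ap1s1 was lower (-0.65 ± 0.09), and Ap3b1 and Vps26a were higher (0.37 ± 0.06 and 0.48 ± 0.08). Ap1b1 did not pass (0.10 ± 0.10).

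Of 23 genes of the TFEB family and of mTORC1 control at the lysosome 8 rose and 7 fell (34.8% and 30.4%). Among genes above the median level 29.5% rose and 33.0% fell, and among all genes 16.2% and 21.7%. The falls in this list were 4 without caffeine-plus array 3. Fnip1, partner of folliculin, the GTPase gene Rheb and the kinase gene Mtor were 2.40-fold, 2.41-fold and 2.50-fold higher. Lamtor1, the membrane anchor of the Ragulator complex, was 2.87-fold lower (-1.52 ± 0.10), its fellow subunit gene Lamtor4 2.30-fold lower (-1.20 ± 0.08) and the GTPase gene Rraga 1.33-fold lower. The rest of these families, looked up with values known, was divided. Lamtor3 was 1.91-fold higher (0.93 ± 0.08) and Lamtor2 1.24-fold lower (-0.31 ± 0.09), while Lamtor5 did not pass (-0.03 ± 0.09). Rragc, a relative of Rraga, was 1.27-fold higher (0.35 ± 0.07), and Rragb and Rragd did not pass. The genes of TFEB and its relatives are given here as a choice made with their values known. Tfec was 1.25-fold lower without overlap between groups (-0.33 ± 0.09, limma adjusted p = 0.011). The other three did not pass: Tfeb differed by -0.10 ± 0.11, Tfe3 by -0.16 ± 0.10 and Mitf by 0.11 ± 0.11 (limma adjusted p = 0.59, 0.25 and 0.53).

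**Figure D5:**
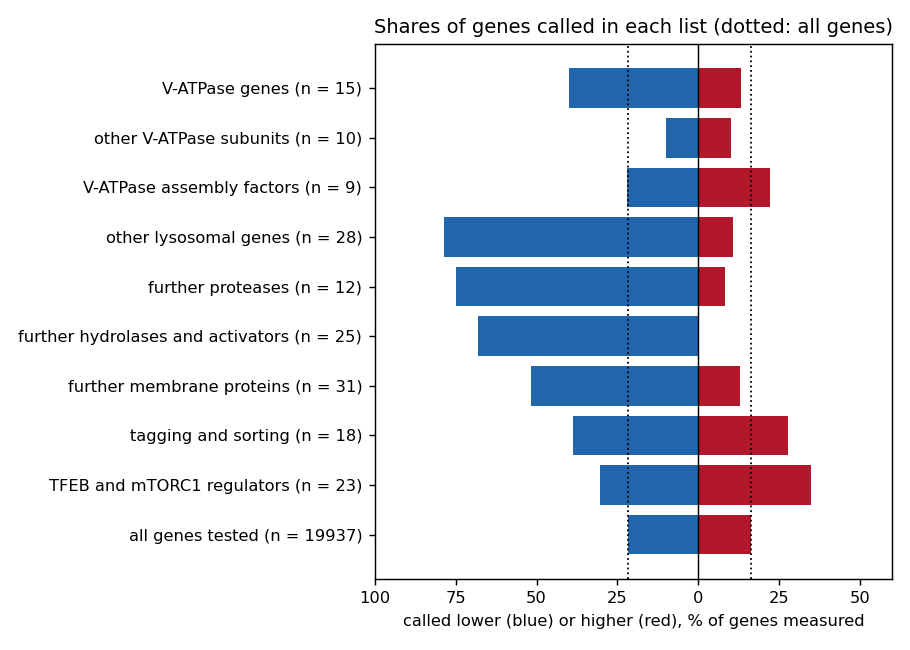
Share of measured genes in each list that were lower (blue, left) or higher (red, right) in caffeine-plus arrays by limma, in % of genes measured; dotted lines mark 21.7% and 16.2%, the shares over all genes tested. The lists of proteases, hydrolases and other lysosomal members reach 68.0% to 78.6% lower. The V-ATPase genes stand at 40.0% lower, and the TFEB and mTORC1 regulators at 30.4% lower and 34.8% higher. Among genes above the median level, which are not marked, 33.0% were lower and 29.5% higher.

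Markers of neutrophils and of other cells are set beside all genes, of which 21.7% fell and 16.2% rose. Among genes above the median level 33.0% fell and 29.5% rose. Of 16 neutrophil markers 14 fell (87.5%, median -0.56), and 15 of the 16 lay above the median level of all genes. So did 9 of 11 eosinophil, basophil and mast cell markers and 6 of 13 monocyte and macrophage markers. Bright probe sets were thus not particular to the neutrophil markers. The log2 of their summed linear values was 14.31 to 14.35 in the caffeine-plus arrays and 14.81 to 14.89 in the caffeine-minus arrays. Of 13 monocyte and macrophage markers, cells rich in lysosomes, 6 fell and 1 rose, with summed levels of 10.64 to 10.72 against 11.37 to 11.55. Eosinophil, basophil and mast cell markers gave 12.59 to 12.60 against 13.12 to 13.26, with 5 of 11 lower and 2 higher. Summed levels were also lower for B cells (8.57 to 8.72 against 9.24 to 9.29, 1 of 6 genes lower), T and NK cells (9.50 to 9.66 against 9.75 to 9.88, 1 of 8 lower) and erythroid cells (8.69 to 8.79 against 9.03 to 9.14, 2 of 5 lower). In the B cell list and the T and NK cell list 16.7% and 12.5% of genes fell, below the share of all genes. The gene that fell was Cd79b in the B cell list (-1.72 ± 0.11) and Nkg7 in the T and NK cell list (-0.35 ± 0.08). Each was the brightest of its list by its mean over all arrays. The T and NK cell sums rest largely on Nkg7, and the B cell sums of the caffeine-minus arrays on Cd79b (mean 8.26). In the caffeine-plus arrays the B cell sums were more even, with means of 6.54 for Cd79b, 6.42 for Blnk and 6.41 for Cd79a. Array values have no 0, so absence of a marker cannot be read from them. The part of these markers in the fall of lysosomal genes was not tested, and fewer cells of a type and less RNA per cell cannot be told apart in such samples.

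Some members share their span with another gene in the reference annotation. Strand, exons and probe positions were not compared, so whether the other gene adds to a member's signal was not tested. Cln3, which rose, overlaps Apobr, which was lower (-1.18 ± 0.10, limma adjusted p = 1.3e-07). Galns overlaps Trappc2l, which was lower by more than Galns itself (-2.45 ± 0.10), and Ctsb overlaps Fdft1 (-0.80 ± 0.09). Ppt1, Ctsz, Ctsa and Glb1 overlap Cap1, Nelfcd, Neurl2 and Tmppe, which differed by -0.42 ± 0.07, -0.43 ± 0.08, -0.39 ± 0.10 and -0.35 ± 0.13. Npc1, with no difference past the threshold, overlaps Rmc1 (0.45 ± 0.09). Of the further genes named, Ctbs overlaps Spata1 (-0.47 ± 0.10), Tmem175 overlaps Dgkq (-0.45 ± 0.10) and Vps29 overlaps Fam216a (-0.77 ± 0.08). Rragc, which rose, overlaps D130007C19Rik (-1.46 ± 0.08), and the dim Atp6v1c2 overlaps Pdia6 (-0.35 ± 0.06). All of these overlapping genes were past the threshold.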

How the data were processed

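The deposited table holds 1 value per array for each of 34760 probe sets. It was read as log2 expression values made comparable between arrays by the authors: no header gives the unit, but the deposited log2 values run from 1.90 to 13.98. The summarization of probes and any normalization were among the steps not given in the sources used here, and no scanner file was used here. Per the labels' protocols, 300 ng of Trizol-extracted total RNA was labelled with biotin.

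Names came from the platform annotation, in which 21640 probe sets have 1 gene symbol, 1321 several and 11799 are not listed. Symbols were updated through gene identifiers (21553 found) to assembly GRCm38.p6. The test was limma's (version 3.58.1, R 4.3.3; lmFit, eBayes with intensity trend), two-sided, with Benjamini-Hochberg adjustment over 19937 genes and a threshold of 0.05. The fit was tested on simulated data in which 200 of 19937 genes were changed. There it missed many of the smaller changes, and the share of false calls came out somewhat above the threshold. In the real data 37.9% of genes were called, so the share missed there may differ. A gene that did not pass is not shown to be unchanged. Fold changes are 2 to the power of the log2 difference.

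The members and lists were chosen with earlier results of these data known. Values in every array are given for members past the threshold with the 6 largest falls or the rises, for V-ATPase genes past it by over 0.5, and where probe sets disagree. Other lists give up to 3 genes per direction with the smallest p, and some further genes of the same complex or family, named with their values known. The 16 alternatives were the replicate block, 2 scalings, 2 filters on dim genes, 2 treatments of several probe sets, 3 variance models and each array left out. The number of arrays, 3 per group, limits the precision.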

Additional observations from a re-analysis of the deposited data

How the results depend on the processing

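Of the 33 member genes past the threshold, 32 kept their direction and their side of it under each of the 16 alternatives, and Gaa lost its call without caffeine-plus array 1. Of the 10 others, Atp6v0a1, Atp6v0b and Atp6v1c1 passed under some. Over the arrays left out in turn, 27 to 29 members fell and 5 to 6 rose. For the V-ATPase genes the median of -0.12 became -0.18 after quantile normalization and -0.06 with arrays centred on their medians, and ran from -0.17 to -0.04 with arrays left out. For the other lysosomal members the median of -0.71 became -0.79 and -0.65, and ran from -0.72 to -0.69. Over all genes the median of -0.04 became 0.02 with centred arrays, where 49.5% of calls were rises against 42.7%. The falls among further membrane protein genes were then 10 in place of 16. Of the assembly factor and V1-binding genes 1 was lower among genes above the median level, where fewer genes are tested. With arrays left out 1 to 2 of them were higher. The falls among TFEB and mTORC1 genes ran from 4 to 7. The cause of these shifts was not tested. Both groups carry replicate numbers 1 to 3. Deviations of same-numbered arrays correlated at -0.028, 0.19 and 0.293, and not every array correlated best with its own number, so the numbers were not taken to pair the arrays. With the replicate block 28 members were again lower and 5 higher, and over all genes 4660 were lower and 3388 higher, against 4325 and 3229. Levels near the background of an array understate a change, but all 43 members lay above the median level of all genes.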

Other observations

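Some lysosomal proteins work as a fixed complex, and the genes of one such complex were looked up after their values were seen. Ctsa, Glb1 and the neuraminidase gene Neu1, whose proteins bind each other in the lysosome, were all lower in the caffeine-plus arrays, with log2 differences of -1.40 ± 0.08, -0.99 ± 0.10 and -0.29 ± 0.09 (limma adjusted p = 1.1e-09, 9.3e-07 and 0.021). The differences between these genes were not tested.

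Over all genes the share that rose went with genomic span, as a description across genes, which are not replicates. Of 4 equal groups of genes by span, the longest, above 46.2 kb, had 26.8% of genes higher and 11.6% lower. The shortest, up to 5.94 kb, had 5.48% higher and 22.1% lower. The group from 5.95 to 17.7 kb had 10.7% higher and 29.2% lower, and that from 17.7 to 46.2 kb 21.7% and 24%. The share lower was thus not ordered by span. The 28 members that fell had a median span of 20.2 kb, the 10 that did not pass 36.1 kb and the 5 that rose 14.6 kb, from 1.96 kb for Cd68 to 80.2 kb for Atp6v1h.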
